A study of Mus musculus with 8 samples.

Results

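The receptors and ligands described here are those of the VEGF and angiopoietin systems: the receptor tyrosine kinases Kdr, Flt1, Flt4, Tek and Tie1, the co-receptors Nrp1 and Nrp2, and the ligands Vegfa, Vegfb and Angpt1. They were chosen by symbol, as the non-control probes of a mouse expression array that name 1 of these 10 genes. The array carries 14 such probes among 55681 distinct probes, and Kdr, Flt1, Nrp2 and Vegfa have 2 probes each. A probe was kept where at least 2 of the 8 arrays had it well above background by the scanner software's call, as held for 12 of the 14 probes. These give 9 of the 10 genes among 23263 tested genes and unnamed features. Flt4 did not pass, because its probe was well above background on 1 array.

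VEGF ligands bind receptor tyrosine kinases on the cell surface. Vegfa binds Kdr, the main signalling receptor of endothelial cells, and Flt1, which binds it tightly and signals weakly, while Vegfb binds Flt1 and Flt4 is the receptor for the lymphatic ligands. Neuropilins bind both VEGF and class 3 semaphorins. Angpt1 activates Tek, also called Tie2, and Tie1 is an orphan relative that modulates it. In bone marrow, Tek and Angpt1 are known from haematopoietic stem cells and their niche, and Kdr marks the embryonic precursors of blood and vessels in which the ETS transcription factor Etv2 acts.

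The arrays measured sorted bone marrow cells from 6-week-old mice of a mixed strain background that included B6/CBA, in 4 groups of 2 arrays. KSL cells, the c-Kit+ Sca-1+ lineage- fraction that holds stem and progenitor cells, and Gr cells, sorted as Gr-1+/Mac-1+ and made up mostly of granulocytes and their precursors, were each taken from controls and from Vav-Etv2 animals. In the latter an Etv2 transgene is switched on by a Vav-iCre transgene, which is active throughout blood cells. The labels do not say which transgenes the control mice carried, or whether 2 arrays of a group came from separate animals. The p-values therefore cover the spread between these arrays, which in KSL cells may be technical. In Gr cells the 2 arrays of a group differed in the sex genes given below, so sex and replicate number cannot be told apart there. All 8 arrays share 1 slide, with KSL arrays on the first slide row and Gr arrays on the second, so slide row and cell type cannot be told apart.

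Levels are log2 processed signals minus the array's 75th percentile, so 0 is a fairly bright probe, and a level is compared only with other levels of the same probe. The share of probes well above background ran from 47.7% to 55.5% over the arrays, and no probe was saturated. With 2 arrays a group, the number of arrays limits the precision, and probes that are not well above background give no measured level. The sorts were checked on their markers, with 7 of 8 KSL marker genes (among them Cd34, Flt3 and Kit) higher in control KSL than in control Gr cells past the threshold. The exception was Ly6a, which encodes the Sca-1 antigen of the KSL sort and read 3.65 and 3.59 in control KSL against 6.18 and 4.48 in control Gr cells (difference -1.71, SE 0.76, limma adjusted p = 0.122). The 10 measured Gr-1/Mac-1 marker genes all had lower means in control KSL cells, 3 of them (Mmp8, Mmp9 and Cxcr2) past the threshold. Bulk levels cannot tell more cells of a type from more RNA per cell.

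Etv2 itself was read first. Its level was -4.37 and -4.73 on the KSL control arrays, both not well above background, and 0.19 and -1.24 on the KSL Vav-Etv2 arrays, a group difference of at least 16.3-fold (limma log2 difference 4.02, SE 1.19, adjusted p = 0.462). Its levels on the Gr arrays were -4.48 in control replicate 1, not well above background, -0.55 and -1.29 in the Vav-Etv2 replicates, and -0.54 on the array labelled Gr control replicate 2. The last value goes against that array's label, and a second Etv2 probe gave -0.85 on the same array against -5.81 on the other Gr control. On 11284 bright probes, the spread of the differences between 2 arrays was taken as their scaled median absolute deviation. It was 0.14 log2 units between the array labelled Gr control 2 and Gr Vav-Etv2 2, less than between the 2 arrays of any group (0.18 to 0.89). Both of these arrays also lacked Xist (-7.10 and -6.82 by 1 probe) while Gr replicates 1 carried it (0.27 and 0.35), as did all 4 KSL arrays (2.12 to 2.69). The Y chromosome gene Ddx3y read 1.39 and 1.36 on Gr replicates 2, -4.05 and -5.81 on Gr replicates 1 and -6.40 to -6.03 on the KSL arrays. The 2 arrays of each Gr group thus differ in sex and do not come from the same animals. The members' Gr results are therefore also given within each replicate number and with the array labelled Gr control 2 left out.

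Kdr and Flt1 each have a pair of probes that did not behave alike, so the first 30 of the 60 bases of each are shown. Positions on the transcript are counted from its 5′ end, and the probes are placed on build mm9 of the mouse genome as the array files give it, on the minus strand; whether they lie in an exon or UTR was not looked up, as no annotation of that build was used here. The first Kdr probe starts at transcript position 4291 (chr5:76330395-76330454) and is 55% G or C, and the second starts at position 5377 (chr5:76329309-76329368) and is 35% G or C. The first Flt1 probe starts at position 6201 of its transcript (chr5:148373791-148373850), and the second (chr5:148465976-148466035) belongs to another transcript record.
Kdr first probe: tgtttaaatggaagtggtcctgtcccggct
Kdr second probe: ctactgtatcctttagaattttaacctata
Flt1 first probe: aagtaaagaaaagctatcgggattctctgg
Flt1 second probe: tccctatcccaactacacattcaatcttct

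The 250 bases before the start of the 5 receptor kinase genes are shown as well, with the GGAA core that ETS factors bind. Whether Etv2 acts on these genes was not tested. The sequences are from RefSeq on build GRCm38.p6, and capitals mark GGAA and its complement TTCC. The table of promoters held 9 of the 10 genes, with 2 starts for Vegfa, and Angpt1 was not among them.
Kdr promoter, chr5:75978456-75978705, minus strand: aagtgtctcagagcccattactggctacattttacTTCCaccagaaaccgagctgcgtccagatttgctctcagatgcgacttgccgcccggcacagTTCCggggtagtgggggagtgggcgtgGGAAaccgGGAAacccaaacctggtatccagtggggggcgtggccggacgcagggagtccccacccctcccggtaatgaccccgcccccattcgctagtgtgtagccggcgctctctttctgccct
Flt1 promoter, chr5:147726012-147726261, minus strand: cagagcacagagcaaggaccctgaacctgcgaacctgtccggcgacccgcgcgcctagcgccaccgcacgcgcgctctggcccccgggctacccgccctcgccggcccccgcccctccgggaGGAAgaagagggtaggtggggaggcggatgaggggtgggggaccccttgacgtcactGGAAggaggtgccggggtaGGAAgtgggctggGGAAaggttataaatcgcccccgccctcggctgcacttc
Flt4 promoter, chr11:49609429-49609678, plus strand: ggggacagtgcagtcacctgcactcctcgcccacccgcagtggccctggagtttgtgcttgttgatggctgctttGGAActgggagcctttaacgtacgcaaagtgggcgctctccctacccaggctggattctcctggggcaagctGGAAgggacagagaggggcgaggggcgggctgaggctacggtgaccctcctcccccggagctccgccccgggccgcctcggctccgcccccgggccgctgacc
Tek promoter, chr4:94739039-94739288, plus strand: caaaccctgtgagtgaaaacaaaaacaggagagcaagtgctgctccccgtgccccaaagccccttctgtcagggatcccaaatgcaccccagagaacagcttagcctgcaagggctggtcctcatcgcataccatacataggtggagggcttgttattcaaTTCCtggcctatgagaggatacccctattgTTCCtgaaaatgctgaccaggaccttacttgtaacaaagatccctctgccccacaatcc
Tie1 promoter, chr4:118489850-118490099, minus strand: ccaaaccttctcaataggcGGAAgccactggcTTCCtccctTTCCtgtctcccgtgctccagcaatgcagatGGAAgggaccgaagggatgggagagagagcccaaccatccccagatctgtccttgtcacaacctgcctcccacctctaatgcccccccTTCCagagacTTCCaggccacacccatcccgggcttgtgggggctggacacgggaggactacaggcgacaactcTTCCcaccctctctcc
GGAA, searched on both strands, occurred 7 times before Tie1, 4 times before Kdr, Flt1 and Nrp1, 2 times before Flt4 and Tek, 1 time before Nrp2 and Vegfb, and 2 and 6 times before the Vegfa starts. Of 32851 mouse promoters of the same length, 93.4% hold GGAA, with a median of 3 matches. The longer motif CCGGAA, which contains GGAA and is held by 12% of promoters, occurred 1 time before Kdr and not in the other windows. CAGGAA, held by 25.7%, occurred 2 times before Tek and 1 time before Tie1, Nrp2 and the Vegfa start with 6 GGAA matches. These counts describe letters and were not set against any measure of binding.

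In control mice the members differed between the cell types in both directions. Angpt1, Vegfb, Tie1 and Tek were higher in control KSL than in control Gr cells past the threshold, Nrp1 was lower, and the differences of Flt1, Nrp2, Vegfa and Kdr did not pass. Of all 23263 features, 16.2% were called higher and 18.4% lower at an adjusted p under 0.05 in limma with Benjamini-Hochberg adjustment, against 4 and 1 of the 9 members tested. The members' median difference was -0.01, which is the value of the first Kdr probe, or 2.38 with the second Kdr probe in its place, and that of all features was -0.13. The split of all calls depends on the scaling, with 3763 of 8047 calls higher here, 5133 of 8041 when the percentile is taken over probes well above background on every array, and 2790 of 7763 when arrays are scaled to the median. The median of all features then moved to 0.19 and -0.30.

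Angpt1, the Tek ligand, had the widest gap of the ligands. Its level was 4.04 and 4.50 on the KSL control arrays and -2.80 and -1.95 on the Gr control arrays, a 100-fold difference (log2 6.65, SE 0.76, n = 2 and 2 arrays, limma adjusted p = 0.00232). The groups lie far apart, and without the array labelled Gr control 2 the difference was 7.07. Vegfb, a Flt1 ligand, read 1.32 and 1.19 in control KSL cells and -1.20 and -1.04 in control Gr cells. This 5.19-fold difference (log2 2.38, SE 0.28, limma adjusted p = 0.00261) had the smallest standard error of the 5 called. Vegfb kept its call under each alternative run, and Angpt1 under each but the filter on all 8 arrays, which its probe did not pass.

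Tie1 read 1.82 and 1.72 on the KSL control arrays. On the Gr control arrays it read -3.42 in the replicate labelled 2 and -5.99, not well above background, in replicate 1, so that only 1 of the 2 Gr controls measured it. The difference was 6.47 log2 units (SE 1.28, limma adjusted p = 0.0116), and 3.52 under another background correction (normexp, adjusted p = 0.0133). With 1 array left out a group has a single array whose spread is taken from the other groups, here and in all such values. The adjusted p of Tie1 was 0.0655, 0.0631 and 0.0609 without KSL control 1, KSL control 2 and Gr control 1, and 0.0121 with Gr control 2 left out, where no Gr control that measured it remained. Tek, the angiopoietin receptor, read -2.03 and -1.91 in control KSL cells and was not well above background on any of the 4 Gr arrays (-6.01, -7.23, -4.90 and -6.98). Control KSL cells therefore carried at least 14.5-fold more Tek signal, a bound set by the dimmest signal well above background (limma adjusted p = 0.0185 for the measured log2 difference of 4.65). This call was lost when any of the 4 control arrays was left out (adjusted p 0.0516 to 0.0889), and under another background correction the difference was 0.95 (adjusted p = 0.378).

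The neuropilins had higher means in control Gr than in control KSL cells. Nrp1 read -2.71 and -2.11 in control KSL cells and -1.06 and 0.05 in control Gr cells, 3.74-fold lower in KSL cells (log2 -1.90, SE 0.45, limma adjusted p = 0.0206). Without KSL control 1 the difference was -1.61 (adjusted p = 0.126), without KSL control 2 it was -2.20 (adjusted p = 0.0678), and with Gr control 2 left out it was -1.35 (adjusted p = 0.0499). With normexp background correction it was -1.20 (adjusted p = 0.0202). Nrp2 read -1.76 and -1.80 in control KSL cells and -1.43 and 0.97 in control Gr cells. The Nrp2 groups do not overlap, with 1 Gr replicate near the KSL level and the other far above it. The difference was -1.56 (SE 1.43, limma adjusted p = 0.419). This SE pools the spread within all 4 groups, also those outside the comparison. The Nrp2 SD was 0.03 in control KSL, 1.70 in control Gr, 3.07 in Vav-Etv2 KSL and 1.01 in Vav-Etv2 Gr cells. The 10 monocyte and macrophage marker genes, another cell type a Gr-1+/Mac-1+ sort could hold, summed to 118 and 163 on the Gr control arrays against 22.5 and 24.1 on the KSL control arrays in linear units of the array's 75th percentile, and their part in the neuropilin levels was not tested.

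Flt1 read -2.98 and -2.71 in control KSL cells and -1.67 and -0.49 in control Gr cells, a difference of -1.76 (SE 1.44, limma adjusted p = 0.365) whose groups do not overlap. The SE again pools all 4 groups, with an SD of 0.19 in control KSL and 0.84 in control Gr cells. In Vav-Etv2 cells the Flt1 SD was 3.58 for KSL and 0.01 for Gr. Vegfa was measured in both cell types, and neither of its probes gave a difference past the threshold. Its first probe read 2.16 and 2.24 in control KSL and 3.17 and 2.47 in control Gr cells (difference -0.62, SE 0.37, adjusted p = 0.224), and its second read 0.52 and 0.49 against 1.22 and -0.26 (difference 0.02, SE 0.67, adjusted p = 0.980). Within the Gr controls both Vegfa probes had the higher scaled level in replicate 1. Before scaling, the first probe's signal was lower there (1228 against 1665) and the second's was higher (318 against 251). The second Kdr probe read -1.44 and -1.29 in control KSL cells and -4.06 and -4.51 in control Gr cells, a 7.58-fold difference (log2 2.92, SE 1.38, limma adjusted p = 0.140), while the first gave -0.01 (SE 0.48, adjusted p = 0.984). The SD of the second Kdr probe was 0.11 in control KSL and 0.32 in control Gr cells, against 3.02 and 1.84 in the Vav-Etv2 groups.

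**Figure D1:**
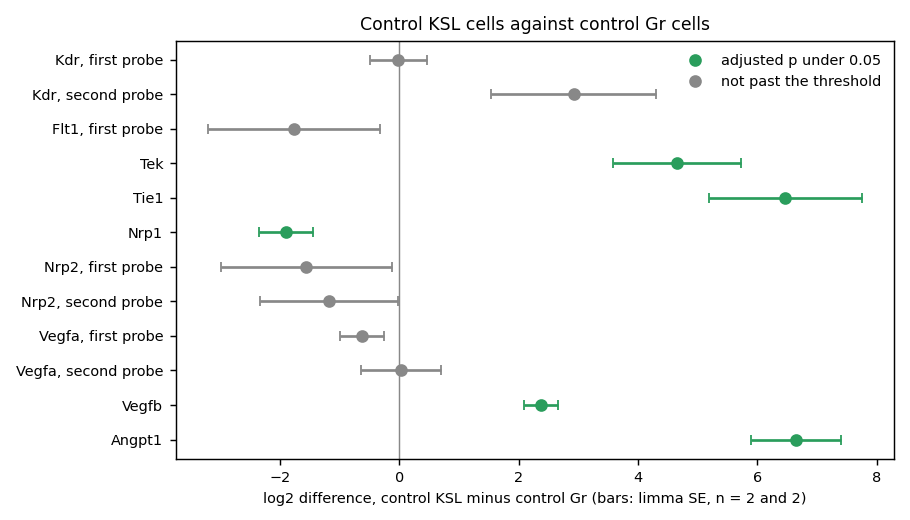
Log2 difference of control KSL minus control Gr cells for the 12 probes that passed the filter, with limma standard errors (2 arrays a group). Points to the right are higher in KSL cells: Angpt1 (6.65), Tie1 (6.47), Tek (4.65) and Vegfb (2.38) lie there past the threshold, and Nrp1 (-1.90) on the left.

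In KSL cells the Vav-Etv2 comparison asked what the transgene does to these genes. Of the tested receptors and co-receptors, Flt1, Tek, Tie1, Nrp1 and Nrp2 had their highest KSL level on the same array, Vav-Etv2 replicate 1. So did 33.8% of all features. Kdr was highest on KSL control 1 by the first probe, which is used for the gene, and on Vav-Etv2 replicate 1 by the second. Flt4, which did not pass the filter, was measured on Vav-Etv2 replicate 1 alone. The 3 ligands had lower means in Vav-Etv2 than in control cells. No member passed the threshold. Over all features 4 were called, which is 0.0172%, and 0 of 9 members were (lowest adjusted p 0.580, for Flt1), with 1 member and 1724 features at an unadjusted p under 0.05. The groups did not overlap for 3 members that were higher (Flt1, Nrp2 and Tek) and 2 that were lower (Vegfa and Vegfb), while 26.1% of all features were higher without overlap and 25.4% lower, so these counts are close to the background. The members' median difference was 0.41 (0.42 with the second Kdr probe) against 0.003 over all features.

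Flt1 had the largest difference of the tested members. Its level was -2.98 and -2.71 on the control arrays, 3.77 on Vav-Etv2 replicate 1 and -1.29 on replicate 2. Against the control mean these are 97.9-fold and 2.93-fold higher, so both Vav-Etv2 arrays lie above both controls and far from each other. The group difference was 4.08 log2 units (SE 1.44, limma adjusted p = 0.580). It was 1.55 without replicate 1 (adjusted p = 1.00) and 6.61 without replicate 2 (adjusted p = 0.0434), the last resting on a single Vav-Etv2 array. The second Flt1 probe was not well above background on any of the 8 arrays and gives no level.

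Flt4, the lymphatic VEGF receptor, read 0.13 on Vav-Etv2 replicate 1, and its probe was not well above background on any other of the 8 arrays (-7.12 to -4.24). Only 1 of the 2 Vav-Etv2 arrays thus measured it, and no fold is given for the group. Without the filter on dim probes the difference of the measured values was 3.50 (SE 1.66, limma adjusted p = 0.997 over 36073 features).

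Kdr depends on the probe. The first probe, used for the gene because its mean is highest, read 3.70 and 3.1 on the KSL control arrays and 3.38 and 3.13 on the Vav-Etv2 arrays, with a difference of -0.15 (SE 0.48, limma adjusted p = 1.00). Before scaling, its signal stayed between 1888 and 2534 on all 8 arrays, in KSL and Gr cells alike. That is an SD of 0.13 log2 units, as small as in 0.142% of the 22569 probes well above background on every array. The second probe, printed in 10 spots an array with an SD between spots of 0.03 to 0.41 log2 units, read -1.44 and -1.29 on the controls, 3.79 on Vav-Etv2 replicate 1 and -0.48 on replicate 2. These are 35.6-fold and 1.85-fold above the control mean, the groups do not overlap, and the difference was 3.02 (SE 1.38, limma adjusted p = 0.755, fitted with each probe by itself). It was 0.89 without replicate 1. The gene-level Kdr value from the first probe carries none of that pattern, and the mean of both probes gave 1.44 (adjusted p = 0.878).

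**Figure D2:**
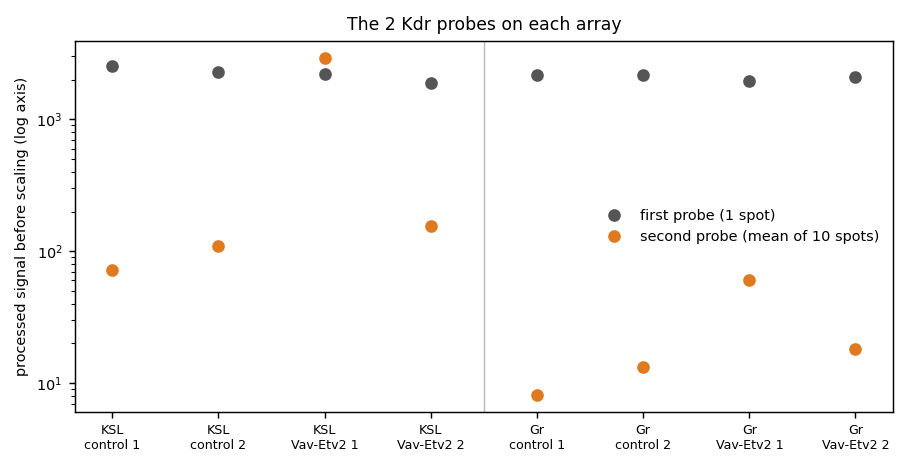
Processed signal before scaling (log axis) of the 2 Kdr probes on each of the 8 arrays, KSL left of the line and Gr right. The first probe stays between 1888 and 2534 on every array, and the second spans 8.15 to 2939, with its highest value on KSL Vav-Etv2 1.

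Tek, the receptor of Angpt1, read -2.03 and -1.91 on the KSL control arrays, 1.91 on Vav-Etv2 replicate 1 and -1.05 on replicate 2, that is 14.7-fold and 1.89-fold above the control mean. The groups do not overlap, and the difference was 2.40 (SE 1.07, limma adjusted p = 0.729), or 0.91 without replicate 1. Tie1 did not follow it on both arrays. It read 1.82 and 1.72 on the controls, 3.77 on Vav-Etv2 replicate 1 and 0.59 on replicate 2, so 1 Vav-Etv2 array lay above the controls and the other below them. Its difference of 0.41 (SE 1.28, adjusted p = 1.00) became -1.18 without replicate 1 and 2.00 without replicate 2.

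Nrp2, a co-receptor that also binds class 3 semaphorins, read -1.76 and -1.80 on the KSL controls, 3.02 on Vav-Etv2 replicate 1 and -1.32 on replicate 2. The first of these is 28.0-fold and the second 1.38-fold above the control mean (difference 2.64, SE 1.43, limma adjusted p = 0.842). Its second probe read -3.51 and -3.53 on the controls, -0.01 on replicate 1 and -3.74 on replicate 2, so its groups overlap. The probes share the high array but not the direction of the other. Nrp1 had overlapping KSL groups, with -2.71 and -2.11 on the controls and -1.73 and -2.24 on the Vav-Etv2 arrays (difference 0.42, SE 0.45, adjusted p = 1.00).

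The ligands were not high on that array. Vegfa, read by its first probe, was 2.16 and 2.24 on the controls and 1.50 and 1.41 on the Vav-Etv2 arrays, 1.67-fold lower (log2 -0.74, SE 0.37, limma adjusted p = 0.811). The second Vegfa probe gave 0.52 and 0.49 on the controls and -0.39 and -0.75 on the Vav-Etv2 arrays (difference -1.07, SE 0.67, adjusted p = 0.900). Both probes thus placed both Vav-Etv2 arrays below both controls, and the first probe's values ranged from -0.78 to -0.69 when 1 array at a time was left out, always without passing the threshold. Vegfb was lower by a smaller step, 1.32 and 1.19 against 0.86 and 1.00 (difference -0.32, SE 0.28, adjusted p = 0.990). Angpt1 read 4.04 and 4.50 on the controls and 3.56 and 4.10 on the Vav-Etv2 arrays, which overlap (difference -0.45, SE 0.76, adjusted p = 1.00).

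**Figure D3:**
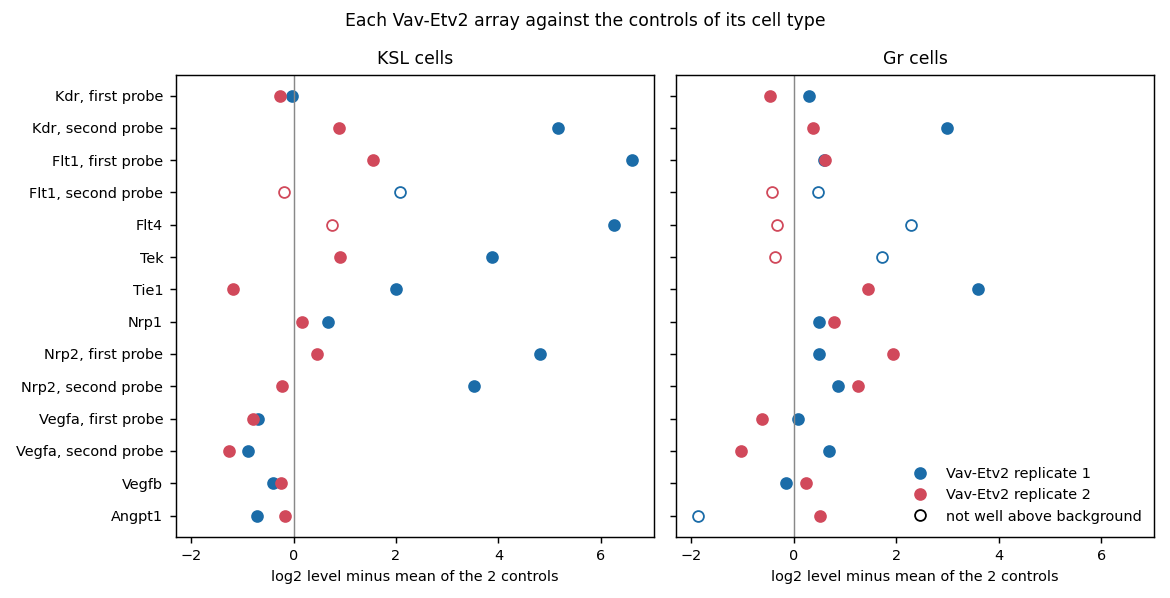
Log2 level of each Vav-Etv2 array minus the mean of the 2 controls of its cell type, for all 14 probes, with open points where that array's probe was not well above background. In KSL cells (left) replicate 1 lies at 6.61 for Flt1, 6.25 for Flt4, 5.15 for the second Kdr probe and 4.81 for the first Nrp2 probe, and replicate 2 at 1.55, 0.75, 0.89 and 0.47.

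Endothelial genes were also highest on that array. The 13 tested genes of the endothelial marker list summed to 76.6 and 78.7 on the KSL controls, 428 on Vav-Etv2 replicate 1 and 128 on replicate 2. Most of each sum was Egfl7, which read 5.99 and 6.03 on the controls and 8.46 and 6.84 on the Vav-Etv2 arrays. Of the 13 genes, 12 had a higher Vav-Etv2 mean (median difference 1.68 against 0.003 over all features, 0 called). The defining marker Cdh5 read -3.74, not well above background, and -3.65 on the controls, 3.53 on replicate 1 and -1.59 on replicate 2. The median marker lay 2.46 log2 units above the control mean on replicate 1 and 0.84 on replicate 2. The same replicate 1 array had the lowest sum of the 10 Gr-1/Mac-1 markers among KSL arrays (124 against 1481 to 1586), and the highest sum of the 7 megakaryocyte and platelet markers (166 against 42.8 to 85.1). Within that list Itga2b, Vwf, Gp9 and Pf4 were highest on this array and Ppbp, Gp5 and Gp1bb lowest, and 4 of the 7 had lower Vav-Etv2 means. The 10 monocyte and macrophage markers summed to 22.5 and 24.1 on the controls and 43.0 and 47.1 on the Vav-Etv2 arrays (9 of 10 with a higher mean, 0 called). Csf1r and Ccr2 made up most of each of these sums. On replicate 1 these genes, Vcam1, Mrc1, Cd68 and Siglec1 lay above both controls, and C1qa, C1qb, C1qc and Adgre1 below both. The 6 mast cell and basophil markers summed to 12.6 on replicate 1 against 33.3 to 35.6 on the other KSL arrays. The 8 KSL markers all had lower Vav-Etv2 means (median -0.87, 0 called). The part of other cells in the receptor levels was not tested.

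**Figure D4:**
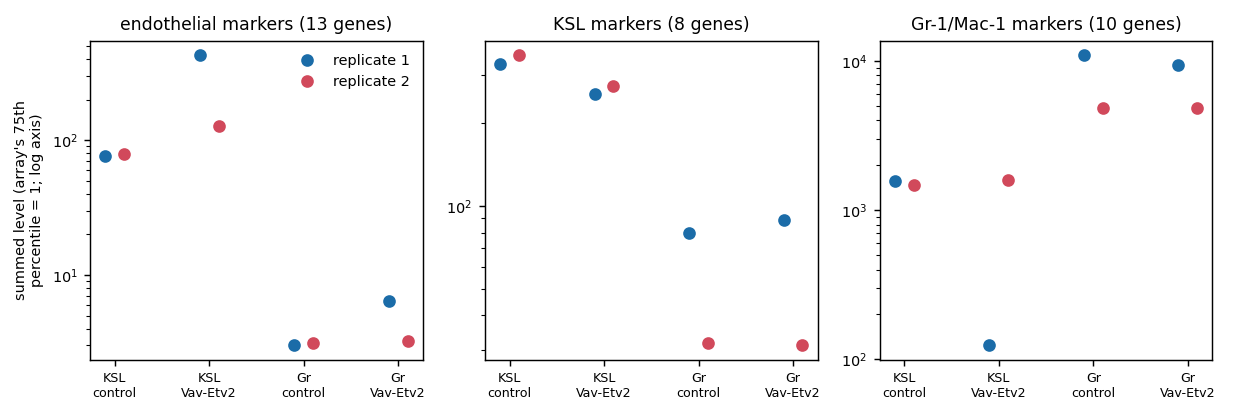
Summed level of the tested genes of 3 marker lists on each array (log axis, 1 is the array's 75th percentile), by group and replicate number. KSL Vav-Etv2 1 has the highest endothelial sum, 428, and the lowest Gr-1/Mac-1 sum of all arrays, 124. Most of the endothelial sum on each array is Egfl7.

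In Gr cells the same comparison called 2 features, or 0.0086%, and 0 of 9 members (all adjusted p = 1.00, 0 members and 295 features at an unadjusted p under 0.05). Among members, 2 were higher without overlap (Flt1 and Tie1) and 0 lower, where 5.85% and 5.77% of all features were. Both margins were narrow. For Flt1 the nearest control and Vav-Etv2 arrays read -0.488 and -0.484. For Tie1 they read -3.42 and -3.25, and its other control was not well above background. The members' median difference was 0.61 (0.64 with the second Kdr probe) against -0.01 over all features. These group values rest on the array labelled Gr control 2, which carried Etv2 signal, and the 2 pairs of equal replicate number differ from each other.

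Tie1 read -5.99, not well above background, and -3.42 on the controls and -1.11 and -3.25 on the Vav-Etv2 arrays (difference 2.52, SE 1.28, limma adjusted p = 1.00), and the difference was 0.61 with normexp background correction. Within replicate 1 it was 4.87, against a control that did not measure Tie1, and within replicate 2 it was 0.18. The second Kdr probe followed the same split, at -4.06 and -4.51 on the controls and -1.30 and -3.91 on the Vav-Etv2 arrays, with 2.76 within replicate 1 and 0.60 within replicate 2 (group difference 1.68, SE 1.38, adjusted p = 1.00). The second Kdr probe was dim on both Gr controls, with signals before scaling of 8.15 on replicate 1 and 13.2 on the array labelled Gr control 2. With that array left out the difference of the second Kdr probe was 1.46 (adjusted p = 0.807), and for Tie1 no control that measured it remained. With normexp background correction the group difference of the second Kdr probe was 0.48. The endothelial marker sum was also highest on Gr Vav-Etv2 1, at 6.41 against 3.01 to 3.23 on the other Gr arrays. Most of each sum was Egfl7, at 2.23 on that array and 0.75 to 1.20 on the others. Of the 13 genes, 5 were not well above background on Gr Vav-Etv2 1, and 9 on each other Gr array. Cdh5 was well above background on Gr Vav-Etv2 1 only (-1.84) among the Gr arrays.

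Nrp1 read -1.06 and 0.05 on the Gr controls and -0.01 and 0.28 on the Vav-Etv2 arrays (difference 0.64, SE 0.45), with 1.05 within replicate 1, 0.23 within replicate 2 and 1.19 with Gr control 2 left out (adjusted p = 0.562). Nrp2 read -1.43 and 0.97 on the controls and 0.27 and 1.70 on the Vav-Etv2 arrays (difference 1.22, SE 1.43). It was higher in Vav-Etv2 within replicate 1 by 1.70, within replicate 2 by 0.73 and with Gr control 2 left out by 2.42 (adjusted p = 0.694). Both replicate 2 arrays lay above both replicate 1 arrays. Mast cell and basophil markers, 6 genes, split by replicate number too, summing to 6.16 and 1.71 on replicates 1 and 85.3 and 52.9 on replicates 2, and their part was not tested. Flt1 read -1.67 and -0.49 on the controls and -0.48 and -0.47 on the Vav-Etv2 arrays, so that only Gr control 1 stood apart from the other Gr arrays (1.19 within replicate 1, 0.02 within replicate 2, and 1.20 with Gr control 2 left out, adjusted p = 0.831).

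Of the ligands in Gr cells, Vegfa read 3.17 and 2.47 on the controls and 2.90 and 2.20 on the Vav-Etv2 arrays, 0.27 log2 units lower within each replicate number (group difference -0.27, SE 0.37, and -0.62 with Gr control 2 left out). Its second probe, at 1.22 and -0.26 against 1.17 and -0.55, gave -0.05 and -0.29 within replicates and -0.91 with Gr control 2 left out. Vegfb read -1.20 and -1.04 against -1.27 and -0.89 (difference 0.04, SE 0.28), with -0.07 and 0.15 within replicates and 0.12 with Gr control 2 left out. Angpt1 read -2.80 and -1.95 on the controls, and -4.25, not well above background, and -1.87 on the Vav-Etv2 arrays (difference -0.68, SE 0.76). Its difference was -1.45 within replicate 1, where the Vav-Etv2 array did not measure it, 0.08 within replicate 2 and -0.26 with Gr control 2 left out. Tek, Flt4 and the second Flt1 probe were not well above background on any Gr array. The first Kdr probe gave -0.08 (SE 0.48), with -0.26 and 0.10 within replicates and -0.65 with Gr control 2 left out.

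**Figure D5:**
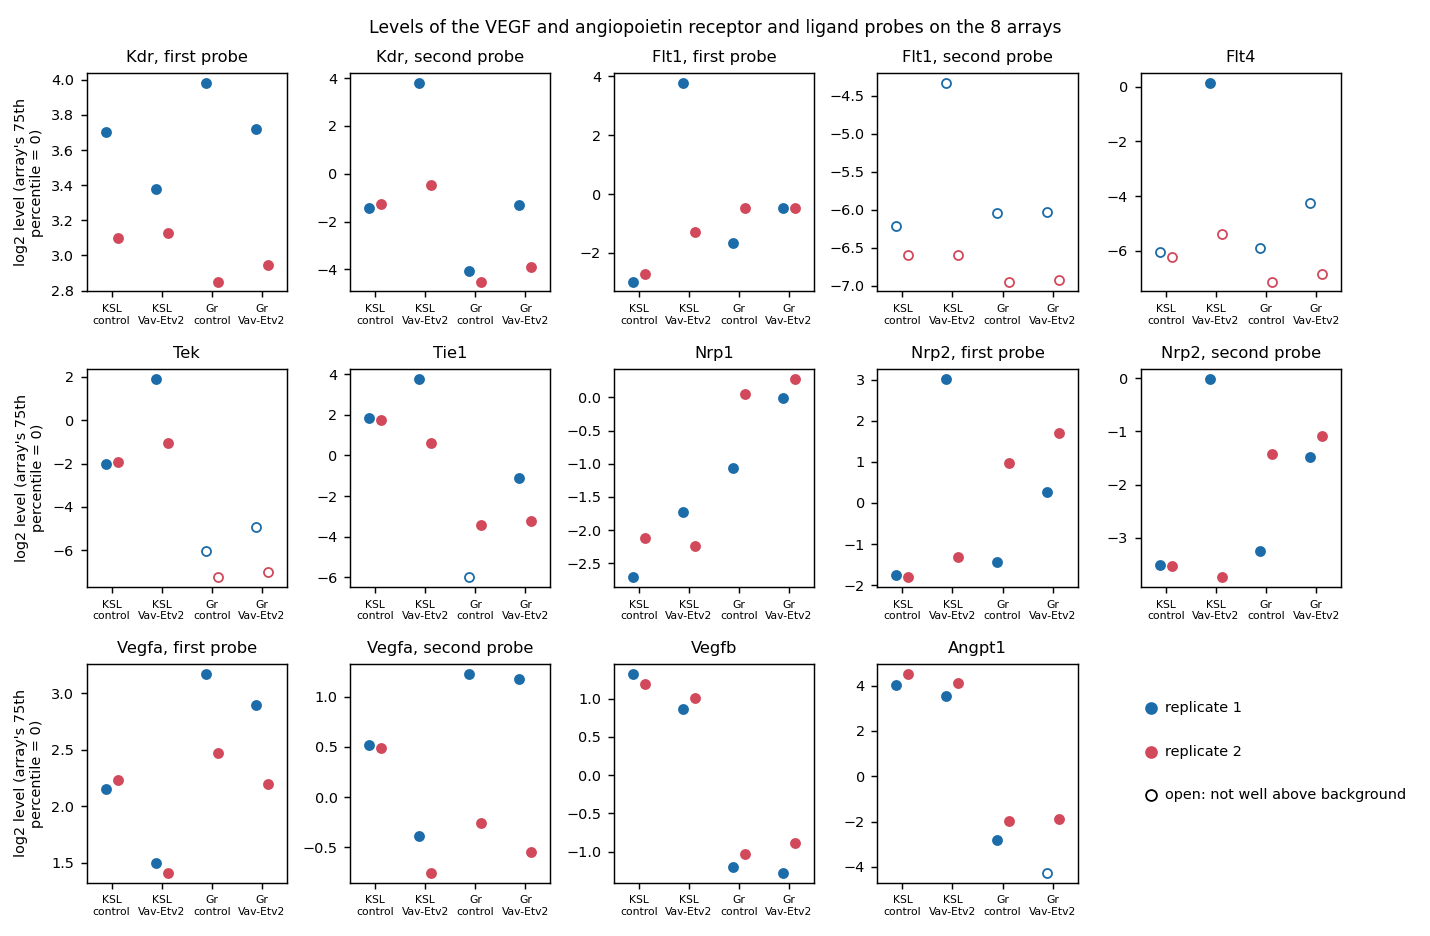
Log2 level of each of the 14 probes on the 8 arrays (0 is the array's 75th percentile), by group, with replicate number by colour and open points where a probe was not well above background. KSL Vav-Etv2 1 is the highest array for Flt1 (3.77), Flt4 (0.13), Tek (1.91), Tie1 (3.77), both Nrp2 probes and the second Kdr probe (3.79), whereas Angpt1 and Vegfb separate KSL from Gr arrays.

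Whether the transgene's effect differed between KSL and Gr cells was tested as an interaction, in which 1 feature was called (0.0043%), with 903 at an unadjusted p under 0.05. No member was called in it (0 with an unadjusted p under 0.05). Flt1 had a KSL effect larger than its Gr effect by 3.48 log2 units (SE 2.03, limma adjusted p = 1.00).

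Other genes of these pathways were taken from lists by role, and no list gene was called in either Vav-Etv2 comparison. Of 3 other VEGF ligands 2 were tested. Vegfc, a ligand of Flt4, read 0.51 and 0.40 on the KSL controls and 2.26 and 0.93 on the Vav-Etv2 arrays (difference 1.14, SE 0.59, limma adjusted p = 0.822), and it was higher in control KSL than in control Gr cells by 4.47 (SE 0.59, adjusted p = 0.00343). Pgf, a Flt1 ligand, differed by -0.62 in KSL cells. Neither of 2 other angiopoietins passed the filter.

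Of 12 neuropilin partners, the class 3 semaphorins and plexins, 8 were tested and 7 had a higher mean in Vav-Etv2 KSL cells (median 0.59 against 0.003 over all features). Sema3g, a secreted class 3 semaphorin, had the largest difference, reading -4.77, not well above background, and -3.89 on the controls and 0.02 and -1.95 on the Vav-Etv2 arrays. Its difference was 3.37 (SE 0.75, limma adjusted p = 0.286). The lowest was Plxna3, a plexin, at -0.55. Between control KSL and control Gr cells Plxna4 (at least 14.4-fold), Plxna3 (at least 13.0-fold), Sema3d (measured on 1 of 2 KSL controls) and Sema3f (at least 4.10-fold) were called higher, with neither Gr control well above background. Sema3g was called lower (-3.80, measured on 1 of 2 KSL controls).

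The list of VEGF receptor signalling had 23 of 25 genes tested, 18 of them with a higher mean in Vav-Etv2 KSL cells (median 0.24) and 12 in Vav-Etv2 Gr cells (median 0.02). Plcg1, the phospholipase that docks on activated Kdr, had the highest KSL difference, with -2.38 and -2.21 on the controls and 0.50 and -1.25 on the Vav-Etv2 arrays (1.92, SE 0.58, limma adjusted p = 0.469). Cdc42, a small GTPase, had the lowest at -0.32. Between the control cell types 5 genes were called higher in KSL cells, namely Prkca (4.57), Fyn (2.81), Plcg1 (2.20, measured on 1 of 2 Gr controls), Hspb1 (at least 20.9-fold) and Ptk2 (at least 14.5-fold), the last pair not well above background on either Gr control. Another 9 were called lower: Prkcb (-4.53), Pxn (-3.17), Nck1 (-2.28), Mapk3 (-2.21), Rac1 (-1.77), Cdc42 (-1.31), Pik3ca (-1.11), Shc1 (-0.90) and Mapkapk2 (-0.85). The 2 conventional protein kinase C genes of the list, Prkca and Prkcb, thus lay on opposite sides.

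For Tie receptor signalling all 10 genes were tested, 7 with a higher mean in Vav-Etv2 KSL cells (median 0.07). Ptprb, the phosphatase that acts on Tek and is itself endothelial, was not well above background on either control and read 2.61 and -1.82 on the Vav-Etv2 arrays, at least 28.7-fold higher as a group (limma adjusted p = 0.506 for the measured difference of 4.84). Dok1, an adaptor, had the lowest value, -0.18. Grb2 (-1.12) and Grb14, both adaptors, were called lower in control KSL than in control Gr cells, and Grb14 was measured on 1 of these 4 arrays, a Gr control.

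Vegfa is a target of hypoxia-inducible factors, so 12 other hypoxia targets were read beside it. In Vav-Etv2 KSL cells 9 of them had a higher and 3 a lower mean, with a median of 0.29. Ndrg1 was the lowest and, like Vegfa, was lower on both Vav-Etv2 arrays, at 4.38 and 4.47 on the controls and 3.01 and 3.30 (difference -1.27, SE 0.29, limma adjusted p = 0.308). Ankrd37 was the highest at 0.76. Between the control cell types Pdk1 (3.62) and Car9 (2.31) were called higher in KSL cells and Pfkfb4 (-4.81), Pfkfb3 (-1.99) and Pgk1 (-1.42) lower.

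The marker lists held further calls between the control cell types and none in the Vav-Etv2 comparisons. In control KSL cells the endothelial list had 7 of 13 tested genes called higher (Robo4, Esam, Ramp2, Emcn, Egfl7, Plvap and Clec14a). The megakaryocyte list had 5 of 7 (Pf4, Vwf, Gp5, Ppbp and Gp9) and the plasmacytoid dendritic cell list 3 of 6 (Tcf4, Ccr9 and Bst2). The stroma list had 2 of 5 (Pdgfrb and Col1a2, with Col1a1 lower) and the mast cell list 1 of 6 (Gata2). The monocyte list had 5 of 10 genes called lower (Adgre1, Cd68, Vcam1, Csf1r and Siglec1). Of all features, 16.2% were called higher and 18.4% lower. Neither Gr control was well above background for Esam, Ramp2, Emcn, Clec14a, Gp5, Ppbp or Pdgfrb, and only 1 was for Robo4. Neither KSL control was for Siglec1 or Col1a1. In the KSL Vav-Etv2 comparison the highest and lowest values of each list were Ptprb and Robo4 (-0.11) for endothelial, Cd34 (-0.10) and Hlf (-3.03) for KSL, Itgam (-0.38) and Lcn2 (-2.57) for Gr-1/Mac-1, and Itga2b (2.26) and Ppbp (-2.07) for megakaryocyte genes. They were Ccr2 (3.33) and Adgre1 (-0.52) for monocyte, Irf8 (0.38) and Klk1 (-3.38) for plasmacytoid dendritic, Col1a1 (not well above background on any KSL array) and Col1a2 (-3.32) for stroma, and Mcpt8 (0.03) and Fcer1a (-1.98) for mast cell genes.

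Features whose pattern over the 8 arrays was most like a member's were found by Pearson correlation, as a description of arrays that share cell types and replicates. For Flt1 they were Nid2 (r = 0.971), which encodes a basement membrane protein, Cntnap1 (0.970) and Cttnbp2nl (0.966). Nid2 read 1.04 on KSL Vav-Etv2 1 and -6.21 to -3.45 on the other arrays. For the second Kdr probe they were Susd4 (0.990), Rnd2 (0.989) and Denn2b (0.988), and for the first Kdr probe Grm5 (0.981), Clpsl2 (0.976) and Sart1 (0.976), so the 2 Kdr probes share none of these. For Nrp1 they were Susd3 (0.985), Homer1 (0.984) and Ms4a6d (0.981). For the first Vegfa probe they were Olfr704 (0.985), Olfr338 (0.984) and Rgs18 (0.981), and for the second Myh14 (0.977), Phospho1 (0.977) and Nktr (0.973). Some of the values correlated lay below the dimmest signal well above background on their array and give no measured level. This held for Nid2 on KSL control 2, Olfr704 and Olfr338 on KSL Vav-Etv2 2, and Denn2b on Gr control 1. It also held for Susd4 on both Gr controls and Gr Vav-Etv2 2.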

How the data were processed

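Per the file headers, the authors' deposited files hold spot intensity from 1-colour Agilent arrays, read by Agilent Feature Extraction, version 10.7.3.1 there and 10.7 per the submitters' processing notes, and placed on mm9. The processed signal used here is background-subtracted and not normalised between arrays. The deposited value table is on a log2 scale; 99.7% of its values lay within 0.01 of processed signals scaled per array and centred within cell type, and its column medians run from -0.26 to 0.29. Deposited columns of other units, such as flags and positions, identified or filtered spots.

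Control spots and outliers were left out, spots of a probe averaged, and 20 probes with no usable spot dropped. Log2 signals minus the 75th percentile were fitted in limma 3.58.1 (R 4.3.3) with 1 coefficient per group over 8 arrays (4 residual and 2.77 prior degrees of freedom). Each feature is the passing probe with the highest mean. Adjustment was over 23263 features, or 32395 probes for second probes. Probes took current names by accession (26670), symbol (2543) or older symbol (475), and 25993 kept the file's name. A further probe names Nrp2 only by an older symbol and was not used. The fit was tested on simulated data. The members and lists were chosen with earlier results of these data known.

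The genes named are the members, Etv2, the highest and lowest KSL difference of each list, every list gene past the threshold (1 is not reported here, and the KSL markers are given by examples), and the 3 features most like Flt1, Kdr, Nrp1 and Vegfa. Alternatives changed the background correction, scaling, a floor, the filter, the probe rule, the variance trend, the arrays fitted and the source of values, added a replicate block and left out each array.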

Additional observations from a re-analysis of the deposited data

How the results depend on the processing

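The KSL count of 4 called features became 17 with normexp background correction, 50 with quantile normalization, 27 with median scaling, 7 with a floor at the lowest signal well above background and 0 with the filter on all 8 arrays, where 17136 features remain. It ranged from 0 (without KSL control 2) to 37 (without KSL Vav-Etv2 2) when 1 array was left out, with 1 without KSL Vav-Etv2 1, 2 without KSL control 1 and 11 without either Gr control. The Gr count of 2 became 0 with normexp, 1 with the floor, 1 with no filter, 0 with the filter on all 8 arrays, 1 with each probe by itself, 1 with the replicate block and 0 with only the Gr arrays, and ranged from 0 to 2 with 1 array left out. The interaction count of 1 became 6 with normexp, 5 with quantile normalization, 2 with median scaling, and 0 with no filter, the filter on all 8 arrays, the intensity trend, the replicate block and each array left out. The control KSL and Gr count of 8047 ranged from 2167 (without KSL control 2) to 9371 with 1 array left out, with 2214 without KSL control 1 and 4004 without Gr control 1. Member calls, 5 in all, became 2 with the filter on all 8 arrays, where Angpt1, Tie1 and Tek drop out, and ranged from 2 (without either KSL control) to 7 with 1 array left out, with 3 without Gr control 1. The cause of these changes was not tested beyond the number of features or arrays named.

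Some member values changed direction, and none of them was past the threshold. With the mean of both probes Kdr was 1.44 in KSL, 0.80 in Gr and 1.45 between control cell types. The last was also 0.047 with normexp, 0.37 with quantile normalization and 0.31 with the percentile over probes well above background on all arrays. With the second Vegfa probe, the control difference was -0.14 with median scaling. With 1 array left out, the KSL difference ranged from -0.45 to 0.15 for Kdr, -1.18 to 2.00 for Tie1 and -0.22 to 3.52 for the second Nrp2 probe. The Gr difference ranged from -0.65 to 0.48 for Kdr, -0.36 to 1.72 for Tek, -0.62 to 0.078 for Vegfa, -0.15 to 0.23 for Vegfb, -1.87 to 0.50 for Angpt1 and -1.03 to 0.69 for the second Vegfa probe. The control difference ranged from -0.58 to 0.55 for Kdr and -0.72 to 0.76 for the second Vegfa probe. Flt1 (-1.76) and the second Kdr probe (2.92) passed the threshold between control cell types without either KSL Vav-Etv2 array (adjusted p = 0.0366 and 0.0436).

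Same-numbered arrays deviated from their group means with a correlation of 0.07 in KSL and 0.66 in Gr cells, over 2 pairs each, and nothing in the labels says that the numbers pair the samples. Same-numbered Gr arrays shared their Xist and Ddx3y pattern. With the replicate block, 4 features were called in KSL, 1 in Gr and 11811 between control cell types, with 6 members called there. Vegfa was then called (-0.97, adjusted p = 0.0272), Nrp2 became 0.50 and its second probe 0.32, and the second Vegfa probe -0.68. Of the values of single probes and genes under the alternatives, 681 kept direction and side of the threshold, 10 lost it, 6 gained it and 26 changed direction. Flt4 could not be given under the alternatives that keep the filter. A fit with only the arrays of a cell type and the authors' table apply only within a cell type.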
